A study of Mus musculus with 4 samples.

Results

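Sphingosine 1-phosphate (S1P) is a lipid signal that lymphocytes follow out of spleen, thymus and lymph nodes, and the 10 genes described here encode its receptors and the enzymes and transporter that set its level. They are the 5 receptor genes S1pr1, S1pr2, S1pr3, S1pr4 and S1pr5, the sphingosine kinases Sphk1 and Sphk2, the S1P lyase Sgpl1, the S1P phosphatase Sgpp1 and the S1P exporter Spns2. They were picked by symbol, and all 10 were found among the 35275 genes of the deposited table. RNA came from splenic T cells of C57BL/6 mice, sequenced after 3 days of stimulation through CD3 and CD28 with IL-2. The 4 groups, each of 1 library, are Cers6 knockout at 8 months, Cers6 knockout at 2 months, wild type at 8 months and wild type at 2 months. Cers6 is ceramide synthase 6, which joins fatty acyl chains to a sphingoid base. The labels give neither the deleted part of the gene, nor the sex of the mice, nor whether animals were pooled, and the series text speaks of duplicates while 1 library a group was analysed here. With 1 library a group no spread between mice was measured, and every interval below is a 95% interval that covers counting error only.

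S1P is made when a sphingosine kinase phosphorylates sphingosine, which ceramidases release from ceramide. The lyase destroys S1P for good, whereas the phosphatase turns it back into sphingosine that ceramide synthases can use again. Lymphocytes sense the S1P gradient between tissue and circulation mainly through S1PR1. On T cells this receptor is lost from the surface after activation and regained before the cells leave, and its transcription depends on the factor KLF2. S1PR2 couples to G12/13 proteins and restrains migration, S1PR4 is found mostly on lymphoid and myeloid cells, S1PR5 is known from natural killer cells, and S1PR3 from endothelium and other non-lymphoid cells.

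The libraries held 18145555 to 24239344 counts. The targeted gene Cers6 measured 3.38 and 9.17 CPM in knockout at 8 and 2 months and 32.0 and 13.1 CPM in wild type at 8 and 2 months, counts scaled to the TMM-adjusted library total, so it was lower in knockout at either age and not at 0. Several features set single libraries apart. Xist, the RNA of the inactive X chromosome, measured 440.5 CPM in wild type at 2 months and at most 0.171 CPM in the other 3. In wild type at 8 months Trbv14 made up 98.6% of the T cell receptor Trbv counts, and Cd4 measured 24.6 CPM against 114.7 to 201.7 CPM in the other 3. All 8 T cell markers had counts in every library, with sums of 1482 and 1979 CPM in knockout at 8 and 2 months and 1599 and 1908 CPM in wild type at 8 and 2 months. All 8 B cell markers did too, with sums of 1241 and 1943 CPM in knockout at 8 and 2 months and 3276 and 2252 CPM in wild type at 8 and 2 months, so the libraries were mixtures. In such mixtures fewer cells of a type and less RNA per cell cannot be told apart.

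**Figure D1:**
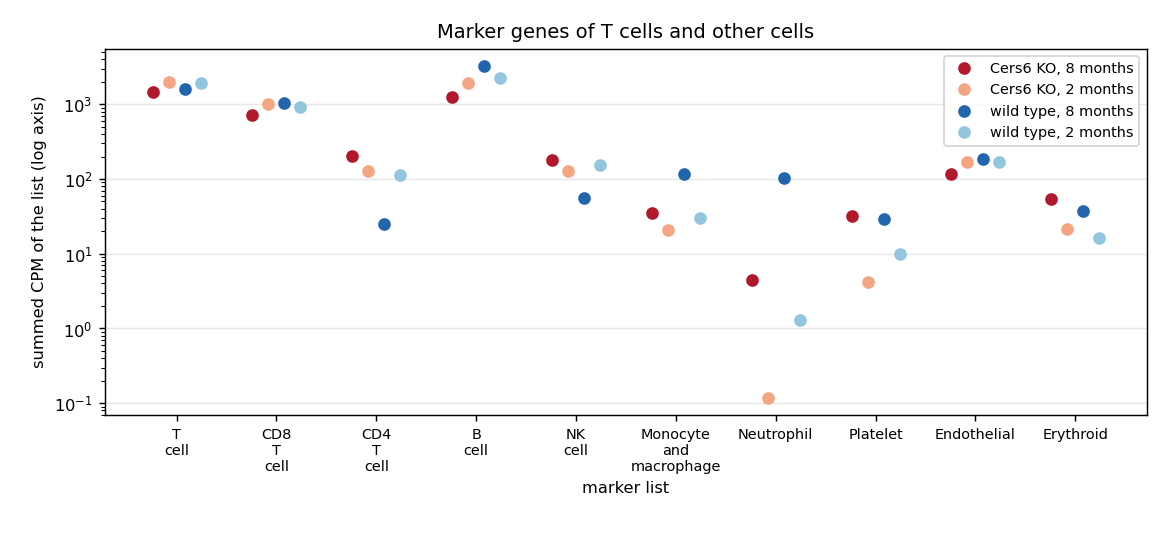
Summed CPM (log axis) of marker lists fixed for T cells and for other cells, 1 point per library, coloured by genotype and age. B cell markers were high in all 4 libraries (1241 to 3276 CPM), and wild type at 8 months stood apart with 102 CPM of neutrophil markers and 24.6 CPM of Cd4.

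Compared per length, by the authors' FPKM values, 2 receptors accounted for nearly all receptor transcripts. S1pr4 lay between 39.4 and 69.5 FPKM and S1pr1 between 38.1 and 51.2 FPKM. The phosphatase Sgpp1 (18.1 to 22.1 FPKM), the lyase Sgpl1 (11.5 to 19.2 FPKM) and the kinase Sphk2 (6.19 to 14.3 FPKM) followed. S1pr2 (1.74 to 4.89 FPKM), Spns2 (1.44 to 2.91 FPKM) and S1pr3 (0.295 to 1.13 FPKM) were low, and S1pr5 (0.110 to 0.347 FPKM) and Sphk1 (0.0609 to 0.399 FPKM) lowest. All 10 genes passed the edgeR filter on low counts. S1pr5 and Sphk1 stayed under 2 CPM in every library, the minimum for counting 2-fold differences between single libraries, which left 8 genes for those counts.

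**Figure D2:**
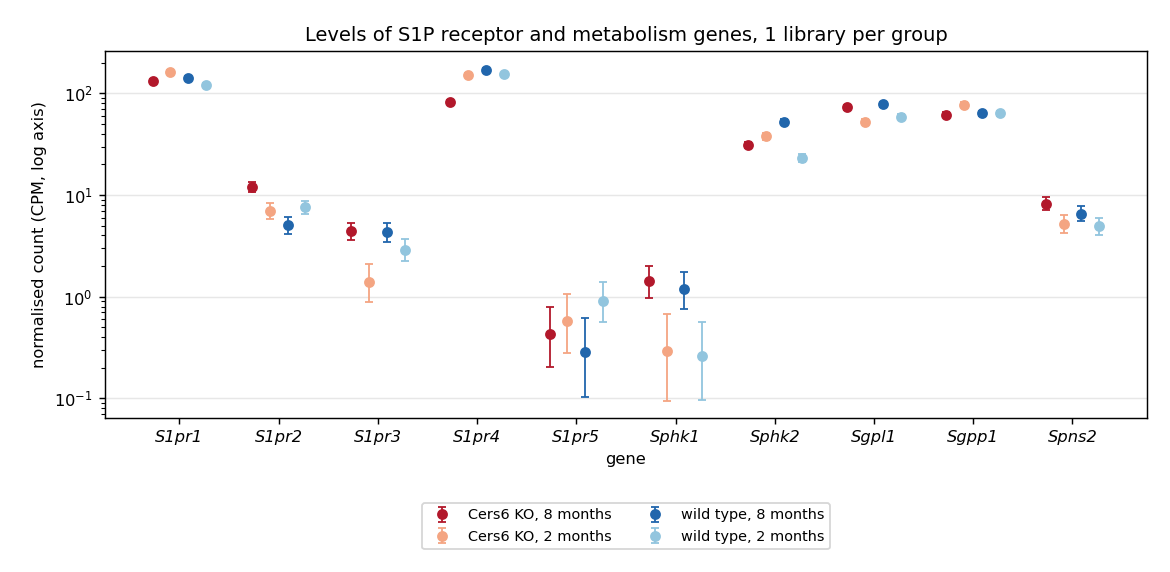
Level of each of the 10 genes (CPM, log axis) in each library, with 95% counting intervals as bars. S1pr1 and S1pr4 lie near or above 100 CPM, S1pr5 and Sphk1 under 2 CPM, and S1pr4 is low and S1pr2 high in knockout at 8 months.

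The question of the series is how expression in aging depends on Cers6, and it was asked first of both ages together. None of the 10 genes passed the test of genotype with age as the other term (edgeR quasi-likelihood, Benjamini-Hochberg adjusted p from 0.638 for S1pr4 to 0.989 for Sphk2), where 0.0288% of the 13906 genes tested did (0.00719% higher and 0.0216% lower in knockout), and 0 of the 10 had an unadjusted p under 0.05. DESeq2 and limma-voom called 0 of the 10 as well. The targeted gene Cers6 did not pass the edgeR test of genotype either (log2 -1.85, SE 0.51, edgeR adjusted p = 0.392). A result of 0 of 10 therefore does not show that these genes were unchanged in knockout. Among the 10, S1pr4 had the lowest p, with a log2 fold of -0.53 (SE 0.29) for knockout over wild type. None passed the test of age either (adjusted p from 0.495 for Sphk1 to 0.991 for S1pr1), where 0.23% of all genes did (0.194% higher and 0.036% lower at 8 months), and 1 of the 10, Sphk1, had an unadjusted p under 0.05. DESeq2 called 0 of the 9 genes it gave an adjusted p, and limma-voom 0 of 10. In these fits the other factor's 2 levels stand in for replicates, with 1 residual degree of freedom, so a genotype effect that differs between ages counts as spread. Leaving out wild type at 8 months brought 2 of the 10 genes past the age test, S1pr4 (log2 -0.89, edgeR adjusted p = 0.00138) and Sphk1 (log2 2.36, edgeR adjusted p = 0.0369), in a fit that called 23.8% of all genes. Leaving out knockout at 8 months brought 1 of the 10 past it, Sphk2 (log2 0.80, edgeR adjusted p = 0.0124), in a fit that called 5.48% of all genes. Both fits have no genotype term and set the 1 library left at 8 months against both at 2 months, with that lone sample assumed to vary like the others.

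Single libraries were then compared at each age. Of the 8 genes with at least 2 CPM, S1pr2 was at least 2-fold higher in knockout at 8 months and S1pr4 at least 2-fold lower. Among all 12133 genes counted this way, 10.4% were 2-fold higher and 6.47% 2-fold lower (16.9% in all), so 1 gene of 8 in each direction is near the background. At 2 months 0 of the 8 reached 2-fold in either direction, where 0.923% of all genes were higher and 2.08% lower (3.0% in all). The median log2 fold of the 8 was -0.07 at 8 months and 0.04 at 2 months, beside 0.00 and -0.01 for all genes counted. For 8 over 2 months in knockout 1 of the 8 was 2-fold higher, S1pr3, and 0 lower, where 10.3% of all genes were higher and 4.71% lower (15.0% in all). For 8 over 2 months in wild type 1 was 2-fold higher, Sphk2, and 0 lower, where 3.29% were higher and 2.77% lower (6.06% in all). All 4 comparisons are between single libraries, with no test.

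The sequences upstream of the genes that differed most between the 8-month libraries, S1pr2, S1pr4 and Sphk2, are shown to compare their base composition and motifs. They are RefSeq windows of 300 bases (GRCm38.p6), from 250 bases before to 50 after a transcript start, and 9 of the 10 genes, all but S1pr1, matched the table. The windows, all on the minus strand, are chr9:20976744-20977043 for S1pr2, chr10:81500088-81500387 for S1pr4 and chr7:45717953-45718252 for Sphk2, the last of them inside the span of Rpl18. Capitals mark the palindrome TGACGTCA, the cyclic AMP response element, and CACCC, the core bound by KLF factors, on either strand (GGGTG on the other).
S1pr2: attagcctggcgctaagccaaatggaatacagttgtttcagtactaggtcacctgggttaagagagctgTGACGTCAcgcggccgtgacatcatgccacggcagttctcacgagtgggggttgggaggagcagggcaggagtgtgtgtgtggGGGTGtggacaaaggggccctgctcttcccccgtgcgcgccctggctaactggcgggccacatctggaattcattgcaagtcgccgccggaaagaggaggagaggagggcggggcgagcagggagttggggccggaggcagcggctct
S1pr4: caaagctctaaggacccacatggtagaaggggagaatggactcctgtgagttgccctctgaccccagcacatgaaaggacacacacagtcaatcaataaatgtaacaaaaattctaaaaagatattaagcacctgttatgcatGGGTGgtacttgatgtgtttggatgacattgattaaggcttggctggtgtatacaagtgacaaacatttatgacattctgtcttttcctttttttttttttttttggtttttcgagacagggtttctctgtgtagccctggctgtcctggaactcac
Sphk2: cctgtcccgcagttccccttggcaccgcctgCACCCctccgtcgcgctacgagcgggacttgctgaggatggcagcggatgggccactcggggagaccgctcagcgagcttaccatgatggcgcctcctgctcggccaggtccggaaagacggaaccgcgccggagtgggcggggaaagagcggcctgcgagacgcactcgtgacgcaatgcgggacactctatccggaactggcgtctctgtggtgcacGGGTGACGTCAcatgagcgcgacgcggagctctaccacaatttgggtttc
TGACGTCA occurred in the windows of 2 of the 9 genes, S1pr2 and Sphk2, and in 1.79% of all 32851 windows of this length. In Sphk2 it overlaps the GGGTG beside it. Sphk2 has a second window, at another start, with 27 CG dinucleotides and without TGACGTCA, and the one printed is that at the deposited gene start. CACCC occurred in a window of 6 of the 9 genes and in 57.5% of all windows. The 9 genes have 14 windows, so for both motifs the count by gene and the share by window are unlike measures. The S1pr4 window is poor in CG dinucleotides, with 1, against 18 in S1pr2 and 33 in Sphk2 and a median of 7 over all windows. Both motifs were picked after the sequences were seen, and a match describes letters only.

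S1pr1 (ENSMUSG00000045092, GRCm38 chromosome 3, 115710433 to 115715055, coding sequence in 1 of 2 exons in GENCODE M21) is the receptor that drives egress. It measured 133 and 163 CPM in knockout at 8 and 2 months and 142 and 122 CPM in wild type at 8 and 2 months, the narrowest spread among the receptors, with the highest library 1.34 times the lowest. Knockout at 2 months was highest and wild type at 2 months lowest, and each step in this order was beyond counting error. The log2 fold of knockout over wild type was -0.10 (-0.17 to -0.02) at 8 months, and 0.15 with library size alone as the scaling, so its sign depends on the scaling. At 2 months it was 0.42 (0.35 to 0.50).

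S1pr4 (ENSMUSG00000044199, chromosome 10, 81497745 to 81500132, a single-exon gene) measured 81.9 and 153 CPM in knockout at 8 and 2 months and 171 and 154 CPM in wild type at 8 and 2 months. Knockout at 8 months lay far below the other 3 libraries, which lay close together in the plot of levels. At 8 months the log2 fold of knockout over wild type was -1.07 (-1.15 to -0.99), whereas at 2 months it was -0.01 (-0.08 to 0.07). The 8-month fold was under 2-fold with library size alone (-0.82) and relative to the CD3 complex genes (-0.77). The summed B cell markers were also lowest in knockout at 8 months (1241 CPM) and highest in wild type at 8 months (3276 CPM), and their part in the S1pr4 value was not tested.

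S1pr2 (ENSMUSG00000043895, chromosome 9, 20965952 to 20976793, coding sequence in 1 of 2 exons), the migration-restraining receptor, measured 12 and 7.03 CPM in knockout at 8 and 2 months and 5.05 and 7.58 CPM in wild type at 8 and 2 months, from 107 to 280 counts. Knockout at 8 months was highest, wild type at 8 months lowest, and the 2 libraries at 2 months did not differ beyond counting error. At 8 months the log2 fold of knockout over wild type was 1.23 (0.92 to 1.58), whereas at 2 months it was -0.11 (-0.46 to 0.23). The 8-month fold stayed beyond 2-fold under all 6 alternative settings (1.17 to 1.53). For 8 over 2 months the log2 fold was 0.76 (0.46 to 1.09) in knockout and -0.58 (-0.95 to -0.23) in wild type. The germinal centre B cell markers summed to 49.2 and 32.2 CPM in knockout at 8 and 2 months and 53.3 and 32.1 CPM in wild type at 8 and 2 months, most of it Bcl6.

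S1pr1, S1pr4 and S1pr2 had unlike patterns. The makeup of the receptor transcripts differed between libraries, and ratios within a library do not depend on the scaling between libraries. Per length, S1pr1 over S1pr4 was 1.28 (1.21 to 1.35) in knockout at 8 months, 0.840 (0.796 to 0.886) in knockout at 2 months, 0.653 (0.622 to 0.686) in wild type at 8 months and 0.624 (0.593 to 0.656) in wild type at 2 months. S1pr1 thus exceeded S1pr4 in a single library, knockout at 8 months. S1pr4 over S1pr2 was 8.06 (7.10 to 9.17) in knockout at 8 months, 25.7 (21.4 to 31.1) in knockout at 2 months, 40.0 (33 to 49.0) in wild type at 8 months and 24 (20.6 to 28.1) in wild type at 2 months. The lowest of these ratios was in knockout at 8 months and the highest in wild type at 8 months. S1pr2 made up 5.09% and 2.06% in knockout at 8 and 2 months and 1.48% and 2.48% in wild type at 8 and 2 months of the summed receptor FPKM.

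**Figure D3:**
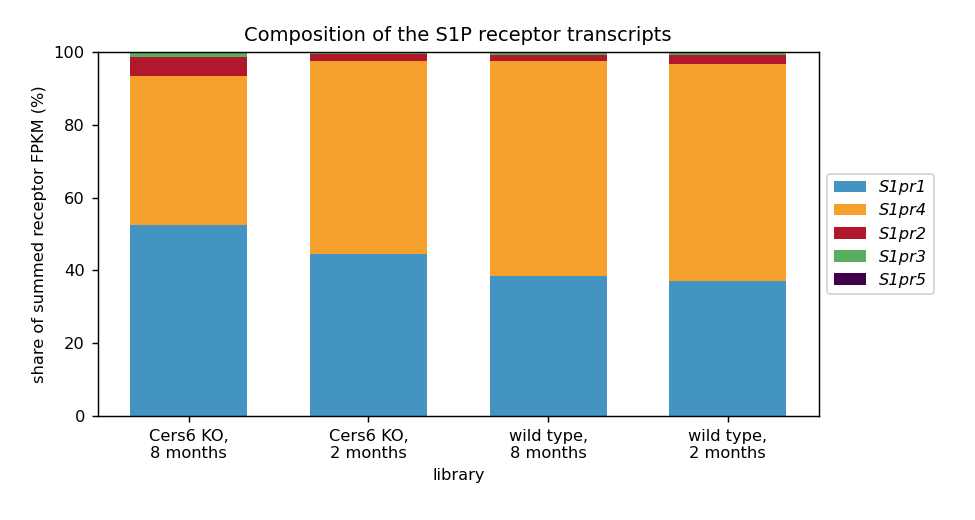
Share of the summed receptor FPKM taken by each of the 5 S1P receptor genes, 1 bar per library. S1pr1 is the larger part in knockout at 8 months (52.5%) and S1pr4 in the other 3 libraries (53.0% to 59.5%), and S1pr2 reaches 5.09% in knockout at 8 months.

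S1pr3 (ENSMUSG00000067586, chromosome 13, 51408618 to 51422797) measured 4.41 and 1.39 CPM in knockout at 8 and 2 months and 4.29 and 2.87 CPM in wild type at 8 and 2 months, from 24 to 103 counts. The 2 libraries at 8 months did not differ beyond counting error and lay above both libraries at 2 months. For S1pr3 the log2 fold of 8 over 2 months was 1.60 (1.01 to 2.37) in knockout and 0.56 (0.11 to 1.06) in wild type. Knockout over wild type at 2 months had a log2 fold of -0.996 (-1.78 to -0.35), just short of 2-fold, which it passed with median-of-ratios scaling, a smaller prior count, a gene length offset or CD3 scaling. The 5 platelet markers summed to 31.9 and 4.12 CPM in knockout at 8 and 2 months and 28.8 and 10.01 CPM in wild type at 8 and 2 months, with Gp1bb at 0 in both libraries at 2 months. The 8 monocyte and macrophage markers summed to 34.9 and 20.6 CPM in knockout at 8 and 2 months and 116 and 30.3 CPM in wild type at 8 and 2 months, with Fcgr1 at 0 in both knockout libraries. Of the 6 endothelial markers Emcn was at 0 in all libraries, and Pecam1 held most of the sum of 116 and 167 CPM in knockout at 8 and 2 months and 184 and 168 CPM in wild type at 8 and 2 months. Cdh5 had 10 and 2 counts in knockout at 8 and 2 months and 24 and 9 counts in wild type at 8 and 2 months, higher at 8 months in both genotypes, as was Tek, which was at 0 in both libraries at 2 months. Kdr had 14 and 1 counts in knockout at 8 and 2 months and 2 and 3 counts in wild type at 8 and 2 months, and Cldn5 was under 1 CPM throughout. The part of these cells in the S1pr3 values was not tested.

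S1pr5 (ENSMUSG00000045087, chromosome 9, 21242912 to 21248443) had 10 and 10 counts in knockout at 8 and 2 months and 6 and 21 counts in wild type at 8 and 2 months. No neighbours in the order of its levels differed beyond counting error, but wild type at 8 months was lower than wild type at 2 months, with a log2 fold of -1.42 (-3.29 to -0.33). A floor of 3 counts corresponds to 0.128 to 0.174 CPM in these libraries. The 6 natural killer cell markers summed to 182 and 128 CPM in knockout at 8 and 2 months and 56.3 and 154 CPM in wild type at 8 and 2 months, mostly Klrd1, which activated T cells also express. Klre1 measured 2.27 and 2.79 CPM in knockout at 8 and 2 months and 0.0944 and 5.97 CPM in wild type at 8 and 2 months, Klrb1c 0.856 and 2.61 CPM in knockout at 8 and 2 months and 0.0944 and 3.57 CPM in wild type at 8 and 2 months, and Eomes 12.7 and 13.2 CPM in knockout at 8 and 2 months and 4.77 and 22.5 CPM in wild type at 8 and 2 months. These 3 markers were, like S1pr5, highest in wild type at 2 months and lowest in wild type at 8 months. The rest of the list differed from that order in part. Klrd1 was highest in knockout at 8 months (166 CPM) and lowest in wild type at 8 months (51.0 CPM). Klra8 was at 0 in wild type at 8 months and highest in knockout at 2 months (2.50 CPM). Ncr1 was under 1 CPM in every library and lowest in knockout at 8 months (0.171 CPM). The part of these cells in the S1pr5 values was not tested.

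The kinases were unequal. Sphk2 (ENSMUSG00000057342, chromosome 7, 45709467 to 45718002) took 96.2% to 99.3% of the kinase FPKM. It measured 31.2 and 37.7 CPM in knockout at 8 and 2 months and 52.5 and 23.2 CPM in wild type at 8 and 2 months, with wild type at 8 months highest and wild type at 2 months lowest, and each step in the order was beyond counting error. At 8 months the log2 fold of knockout over wild type was -0.75 (-0.89 to -0.62), whereas at 2 months it was 0.70 (0.53 to 0.87). In knockout the log2 fold of 8 over 2 months was -0.27 (-0.43 to -0.12), which turned to 0.20 relative to the CD3 complex genes. In wild type it was 1.18 (1.03 to 1.33), beyond 2-fold.

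Sphk2 shares part of its locus with the strongly expressed ribosomal protein gene Rpl18 on the other strand. The spans share 2546 bases, and 8.97% of the annotated exon bases of Sphk2 lie in Rpl18 exons as well, beside 13.0% in exons of Dbp. No source used here says whether counting used the strand, so reads in the shared bases cannot be assigned with certainty. Rpl18 measured 1336 and 1544 CPM in knockout at 8 and 2 months and 1922 and 1845 CPM in wild type at 8 and 2 months, with log2 folds of -0.52 and -0.26 for knockout over wild type at 8 and 2 months, and -0.21 in knockout and 0.06 in wild type for 8 over 2 months. Dbp measured 11.4 and 8.83 CPM in knockout at 8 and 2 months and 9.11 and 8.93 CPM in wild type at 8 and 2 months, with log2 folds of 0.32 and -0.02 for knockout over wild type at 8 and 2 months, and 0.36 in knockout and 0.03 in wild type for 8 over 2 months.

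Sphk1 (ENSMUSG00000061878, chromosome 11, 116530925 to 116536674), the kinase that is induced in many activated cells, had 33 and 5 counts in knockout at 8 and 2 months and 25 and 6 counts in wild type at 8 and 2 months. Its levels were 1.41 and 0.290 CPM in knockout at 8 and 2 months and 1.18 and 0.261 CPM in wild type at 8 and 2 months. Both libraries at 8 months lay above both at 2 months, and the genotypes did not differ beyond counting error at either age. The log2 fold of 8 over 2 months was 1.97 (0.92 to 3.997) in knockout and 1.84 (0.85 to 3.75) in wild type. In the additive fit its age effect was log2 2.22 (SE 0.88, edgeR adjusted p = 0.495), higher at 8 months in 2 of 2 genotypes. The platelet marker sums above had the same order of ages, and so did the neutrophil markers, with 4.49 against 0.116 CPM in knockout and 102 against 1.31 CPM in wild type. Their part in the Sphk1 values was not tested.

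The enzymes that remove S1P varied little. The lyase Sgpl1 (ENSMUSG00000020097, chromosome 10, 61098642 to 61147703), whose loss traps lymphocytes in tissue, measured 72.7 and 52.8 CPM in knockout at 8 and 2 months and 77.9 and 59.1 CPM in wild type at 8 and 2 months. Both libraries at 8 months were above both at 2 months, with log2 folds of 0.46 (0.34 to 0.58) in knockout and 0.40 (0.29 to 0.50) in wild type. The difference of the genotype effect between ages was 0.06 (-0.09 to 0.22) on the log2 scale. The additive age effect was log2 0.44 (SE 0.24, edgeR adjusted p = 0.688), higher at 8 months in 2 of 2 genotypes. The phosphatase Sgpp1 (ENSMUSG00000021054, chromosome 12, 75714248 to 75735729) measured 61.6 and 77.5 CPM in knockout at 8 and 2 months and 63.5 and 63.4 CPM in wild type at 8 and 2 months. Knockout at 2 months lay above the other 3 beyond counting error, but relative to the CD3 complex genes its level was under that of knockout at 8 months (log2 0.14 for 8 over 2 months). The exporter Spns2 (ENSMUSG00000040447, chromosome 11, 72451638 to 72489904), known for supplying lymph S1P from endothelial cells, measured 8.22 and 5.23 CPM in knockout at 8 and 2 months and 6.56 and 4.92 CPM in wild type at 8 and 2 months. Its log2 folds of 8 over 2 months were 0.64 (0.28 to 1.03) in knockout and 0.41 (0.05 to 0.79) in wild type. Its exon bases overlap by 3.21% those of Mybbp1a on the other strand, which measured 94.2 and 177.8 CPM in knockout at 8 and 2 months and 188.8 and 173.2 CPM in wild type at 8 and 2 months.

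Transcripts of the kinase Sphk2 were compared per length with those of each removing enzyme, within each library. The exon bases that Sphk2 shares with Rpl18 and Dbp, where reads cannot be assigned with certainty, bear on all these ratios. Sphk2 over Sgpl1 was 0.527 (0.483 to 0.576) in knockout at 8 months, 0.877 (0.791 to 0.971) in knockout at 2 months, 0.829 (0.768 to 0.895) in wild type at 8 months and 0.482 (0.435 to 0.533) in wild type at 2 months. It was lower at 8 than at 2 months in knockout and higher at 8 than at 2 months in wild type. Sphk2 over Sgpp1 was 0.475 (0.434 to 0.519) in knockout at 8 months, 0.455 (0.414 to 0.501) in knockout at 2 months, 0.775 (0.715 to 0.839) in wild type at 8 months and 0.342 (0.309 to 0.378) in wild type at 2 months, so wild type at 8 months was above the other 3.

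**Figure D4:**
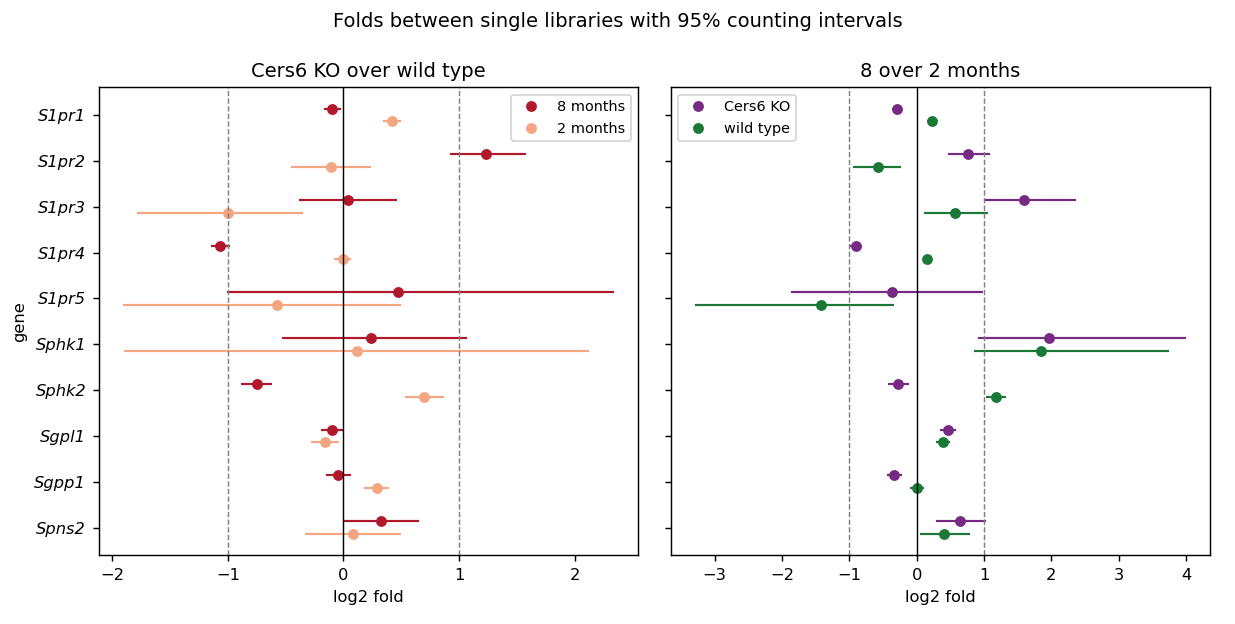
Log2 fold of each gene for knockout over wild type at each age (left) and for 8 over 2 months in each genotype (right), with 95% counting intervals as lines and 2-fold as dashed lines. S1pr2 (1.23) and S1pr4 (-1.07) pass 2-fold for genotype at 8 months, and Sphk2 lies on opposite sides of 0 at the 2 ages.

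The genotype effect differed between ages beyond counting error for several genes, a limit that even small differences pass in genes with many counts. The share of all genes that pass it is not given here, so these differences cannot be read as particular to these genes. On the log2 scale the effect at 8 months minus that at 2 months was 1.36 (0.89 to 1.82) for S1pr2, 1.08 (0.29 to 1.87) for S1pr3, -1.06 (-1.17 to -0.95) for S1pr4, -1.45 (-1.67 to -1.24) for Sphk2, -0.52 (-0.62 to -0.41) for S1pr1 and -0.33 (-0.49 to -0.18) for Sgpp1. For S1pr5, Sphk1, Sgpl1 and Spns2 the interval held 0. These values used TMM scaling, and which genes fall on either side depends on it. Relative to the CD3 complex genes, the folds of knockout over wild type at 8 and 2 months were 0.25 and 0.28 for Sgpp1. They were 0.20 and 0.41 for S1pr1, 0.20 and -0.17 for Sgpl1 and 0.62 and 0.08 for Spns2. With 1 library a group the difference between ages cannot be tested against the spread between mice. Nor can it be told apart from the Xist, Trbv14 and Cd4 differences of the wild type libraries. In the authors' deposited table, which compares single libraries, 0 of the 10 genes had an adjusted p under 0.05 in any of 4 comparisons. The lowest was 0.0700 for S1pr3, 8 over 2 months in knockout. The share of all genes under 0.05 there is not given here, so the 0 does not show that these genes were unchanged.

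Among the genes that act with these 10, 50 in 7 lists, 44 reached 2 CPM, and 47 were tested. None passed for genotype (edgeR quasi-likelihood, lowest adjusted p = 0.534, 2 at an unadjusted p under 0.05) or for age (lowest adjusted p = 0.365, 3 at an unadjusted p under 0.05). With a library left out, 14 of the 47 passed the age test without wild type at 8 months, 7 higher and 7 lower, where 23.8% of all genes were called, and 3 without knockout at 8 months, where 5.48% were. The 14 included Grk2, Gnaq, Klf2, Abca1, Abcc1, Acer2 and Lpar3. Of the 44, 3 were 2-fold higher and 3 lower in knockout at 8 months, beside 10.4% and 6.47% of all genes, and 0 were higher and 1 lower at 2 months, beside 0.923% and 2.08%. Their median log2 fold was 0.09 at 8 months and 0.13 at 2 months. At 8 against 2 months 2 were higher and 2 lower in knockout, beside 10.3% and 4.71% of all genes, and 1 was higher and 3 lower in wild type, beside 3.29% and 2.77%.

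The list on receptor control and egress holds regulators of S1pr1, such as Klf2, beside other genes. Klf2, the transcription factor on which S1pr1 expression depends, measured 88.3 and 189 CPM in knockout at 8 and 2 months and 275 and 164 CPM in wild type at 8 and 2 months, lowest in knockout at 8 months and highest in wild type at 8 months. Its log2 fold of knockout over wild type was -1.64 at 8 months and 0.20 at 2 months, where S1pr1 had -0.10 and 0.42. Il7r, the interleukin-7 receptor chain, measured 123 and 136 CPM in knockout at 8 and 2 months and 50.6 and 105 CPM in wild type at 8 and 2 months, with log2 folds of 1.28 and 0.37 at 8 and 2 months. Tbx21, which encodes the T helper 1 factor T-bet, measured 70.1 and 88.7 CPM in knockout at 8 and 2 months and 40.4 and 100.1 CPM in wild type at 8 and 2 months, with log2 folds of 0.79 and -0.17 at 8 and 2 months. Cd69, whose product binds S1PR1 and pulls it from the surface, and which was named after its values were seen, measured 58.0 and 48.7 CPM in knockout at 8 and 2 months and 45.3 and 42.4 CPM in wild type at 8 and 2 months. Of the 12 genes of this list, 1 was 2-fold higher, Il7r, and 1 lower, Klf2, at 8 months. The Klf2 order of libraries was also that of the summed B cell markers in its highest and lowest library, and their part was not tested. In the fits with 1 library left at 8 months and no genotype term, the log2 difference of Klf2 between ages was -0.99 without wild type at 8 months (edgeR adjusted p = 0.000305, 23.8% of all genes called). Without knockout at 8 months it was 0.65 (edgeR adjusted p = 0.0280, 5.48% of all genes called), and Il7r (-1.24) and Tbx21 (-1.21) passed in that fit too.

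Other lists cover the genes that carry the receptor signal. Of 16 receptor coupling genes with 2 CPM, 1 was 2-fold lower in knockout at 8 months and 0 higher, and the median log2 fold was 0.03, and 0.01 at 2 months. That gene, Grk2 (Adrbk1 in the table), is the kinase that desensitises S1PR1 in lymphocytes, and measured 307 and 529.6 CPM in knockout at 8 and 2 months and 648.6 and 580.2 CPM in wild type at 8 and 2 months, with log2 folds of -1.08 and -0.13 at 8 and 2 months. Gnaq, a G protein alpha subunit, measured 27.9 and 15.8 CPM in knockout at 8 and 2 months and 15.4 and 14.5 CPM in wild type at 8 and 2 months, with log2 folds of 0.85 and 0.12 at 8 and 2 months. Arhgef11, a guanine nucleotide exchange factor downstream of G12/13, had log2 folds of 0.44 and 0.56 at 8 and 2 months.

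Upstream of the kinases, 4 of 4 ceramidase genes with 2 CPM were above 0 in knockout at both ages, with medians of log2 0.60 at 8 months and 0.31 at 2 months, although Asah2 at 8 months turned to -0.14 with a gene length offset. For all genes counted the medians were -0.005 at 8 months and -0.009 at 2 months. A run of 4 genes on 1 side of 0 is short and was not tested. Acer3, an alkaline ceramidase, measured 8.05 and 6.79 CPM in knockout at 8 and 2 months and 4.48 and 4.398 CPM in wild type at 8 and 2 months, with log2 folds of 0.83 and 0.62 at 8 and 2 months. Asah1, the lysosomal acid ceramidase, measured 41.3 and 36.6 CPM in knockout at 8 and 2 months and 32.0 and 32.1 CPM in wild type at 8 and 2 months, with 0.36 and 0.19, and Asah2, the neutral ceramidase, had 0.09 and 0.32. Acer2, the Golgi alkaline ceramidase, measured 7.23 and 4.06 CPM in knockout at 8 and 2 months and 1.79 and 3.27 CPM in wild type at 8 and 2 months, with log2 folds of 1.96 and 0.31 at 8 and 2 months, and was named after its values were seen. None of them passed for genotype (edgeR quasi-likelihood, adjusted p from 0.610 to 0.918).

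The other lists were small. Of the transport genes, Abca1, a lipid exporter, had log2 folds of 0.80 and 0.58 at 8 and 2 months, and Abcc1, an exporter that can carry S1P, 0.59 and 0.07. Mfsd2b, the S1P exporter of red cells and platelets, measured 5.09 and 1.63 CPM in knockout at 8 and 2 months and 4.06 and 4.27 CPM in wild type at 8 and 2 months, low in the library with the fewest platelet marker counts, knockout at 2 months. The erythroid markers instead had their lowest sum in wild type at 2 months (16.1 CPM), with 21.7 CPM in knockout at 2 months. Mfsd2b was named after its values were seen, and the part of these cells in its values was not tested. Of the phosphatase list, the lipid phosphatase Plpp2 (Ppap2c in the table) had -0.30 and -0.11 and Aldh3a2, which oxidises the aldehyde made by the lyase, 0.02 and 0.29. Among intracellular partners of S1P, Hdac2 had -0.51 and -0.08, Phb2 -0.40 and -0.17 and Hdac1 -0.19 and -0.06, with 4 of 4 below 0 at both ages. With library size alone, however, 2 of the 4 turned at 8 months, Hdac1 to 0.05 and Traf2 to 0.19, and Hdac1 turned to 0.07 at 2 months with a gene length offset. This run of 4 genes was not tested either, and the medians of all genes counted were -0.005 and -0.009. Of the related lysophosphatidic acid receptors, Lpar2 measured 21.1 and 17.2 CPM in knockout at 8 and 2 months and 19.9 and 17.0 CPM in wild type at 8 and 2 months. Lpar3, named after its values were seen, had 83 and 24 counts in knockout at 8 and 2 months and 6 and 16 counts in wild type at 8 and 2 months and a log2 fold of 3.27 for knockout over wild type at 8 months.

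**Figure D5:**
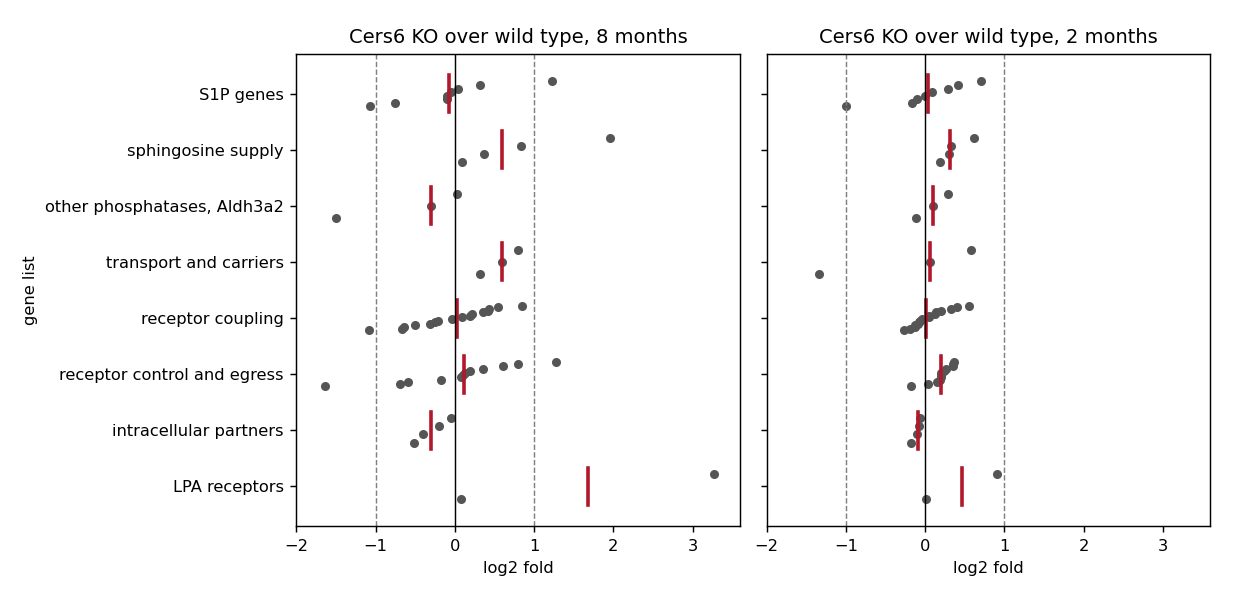
Log2 fold of knockout over wild type at 8 months (left) and 2 months (right) for each gene with 2 CPM or more (points), by list, with the list median as a red bar and 2-fold as dashed lines. The spread is wider at 8 months, where Lpar3 (3.27), Acer2 (1.96) and Klf2 (-1.64) lie farthest out.

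Likeness of pattern was measured as the root mean square difference of log2 CPM centred over the 4 libraries, among 9351 genes with a mean of 5 CPM or more, and 7 of the 10 genes reached that level. With 4 libraries many genes look alike. S1pr1 and Sgpp1 were the closest pair among the 7 (0.08), and S1pr2 and S1pr4 the farthest apart (0.85). Nearest to S1pr1 were Ccdc127, Snx9 and Tmem69 (0.02 to 0.03), with 316 genes within 0.1. Nearest to S1pr2 were Slc2a8, Zfp287 and Gatm (0.02 to 0.04), with 33 within 0.1. Nearest to S1pr4 were Gle1, Mybbp1a and Hnrnpa2b1 (0.02 to 0.03), with 195 within 0.1. Sphk2 had the least common pattern, with 1 gene, Timp2, within 0.1, followed by Tlr2 (0.13) and Snx29 (0.15). Sgpl1 lay nearest to Ears2, Mrgbp and Btg1, Sgpp1 to Pak2 and Msl2 among others, and Spns2 to Sfxn4, Slc29a3 and Letm2, with 95, 713 and 86 genes within 0.1.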

How the data were processed

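Gene expression was measured in 4 libraries, grouped by the labels. CASAVA, STAR, GRCm38 and mm10 stand in the submitters' processing notes, without versions. No source used here gives the counting tool, annotation or strandedness. Raw counts per gene are deposited, per the file headers. The deposited FPKM values equal count over length and library total in all 35275 genes (relative tolerance 1e-06). The authors' log2 ratios and p-values, also deposited, compare single libraries.

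Levels are CPM with TMM factors over the 21501 genes with a count. Tests used edgeR 4.0.16 (R 4.3.3), quasi-likelihood, age and genotype additive, 13906 genes past filterByExpr, Benjamini-Hochberg adjustment at 0.05, with 15.4 prior degrees of freedom. The fit was also run on simulated data without a genotype effect that differs between ages, which does not show how it performs on these libraries. Single libraries were compared on log2 CPM (prior count 2) at 2-fold, without a test, with exact intervals (scipy 1.17.1) of plain count ratios. Intervals of the difference between ages are normal approximations from Poisson errors. At low counts the printed fold lies nearer to 0 than that ratio. Coordinates are those of the table, and 4 list genes and 1 marker were matched by gene ID. A few single marker and like-pattern genes are not reported here.

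The 10 genes, the lists and the rules were chosen with earlier results of these data known. All 10 genes were named, and of each list up to 3 genes with the largest mean absolute genotype fold at a mean of 5 CPM or more. Alternatives were library size alone, median-of-ratios factors, CD3 scaling, prior counts of 0.5 and 10, filters, a gene length offset (mgcv 1.9.3), DESeq2 1.42.0, limma-voom (limma 3.58.1), models without the other factor, and each library left out with the other factor dropped.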

Additional observations from a re-analysis of the deposited data

Results flagged for a closer look

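Several genes lay on opposite sides of 0 in the 2 single-library comparisons of one kind, with both counting intervals clear of 0. None of these differences was tested, since each group has 1 library. The share of all genes that meet the same rule is not given here, so the reversals cannot be read as particular to these genes.

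For knockout over wild type, Sphk2 stood at log2 -0.75 in the 8-month libraries and 0.70 in the 2-month libraries. S1pr1 stood at -0.10 in the 8-month libraries and 0.42 in the 2-month libraries, where the value at 8 months turned to 0.20 relative to the CD3 complex genes.

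For 8 over 2 months, S1pr2 had a log2 fold of 0.76 in knockout and -0.58 in wild type. S1pr4 had -0.90 in knockout and 0.16 in wild type. Sphk2 had -0.27 in knockout and 1.18 in wild type, and S1pr1 had -0.30 in knockout and 0.22 in wild type. The knockout values of Sphk2 and S1pr1 turned to 0.20 and 0.17 relative to the CD3 complex genes.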

How the results depend on the processing

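The count of genes past the genotype test was 0 under all alternatives run. That for age was 0 except with libraries left out, where it ranged from 0 to 2. Without wild type at 8 months, S1pr4 passed as lower (log2 -0.89, edgeR adjusted p = 0.00138) and Sphk1 as higher at 8 months (log2 2.36, edgeR adjusted p = 0.0369), in a fit without a genotype term that called 23.8% of all genes. Without knockout at 8 months, Sphk2 passed as higher (log2 0.80, edgeR adjusted p = 0.0124), where 5.48% were called. Across these fits with a library left out, which drop the other term of the model, the log2 difference of Klf2 between ages ranged from -0.99 to 0.65 and that of Cers6 from -1.71 to 1.53. Without wild type at 8 months the only library left at 8 months is knockout, and without knockout at 8 months it is wild type. Age and genotype therefore cannot be told apart in those fits. The 2-fold count for genotype at 8 months was 1 with library size alone and with CD3 scaling, where S1pr4 dropped out. At 2 months it was 1 with median-of-ratios factors, CD3 scaling, a prior count of 0.5 and the length offset, where S1pr3 entered. For age in knockout it was 2 with library size alone, 3 with CD3 scaling and 2 without the CPM minimum, and for age in wild type 3 without that minimum, since Sphk1 and S1pr5 then count. Library size alone shifted the median of all genes by 0.24 at 8 months for genotype and 0.27 for age in knockout, and CD3 scaling by 0.29 and 0.47. Of 29 folds with intervals clear of 0, 5 changed sign under a scaling, all small. No paired analysis was possible because the labels give no replicate numbers and each group has 1 library. Depth limits S1pr5 and Sphk1, with at most 33 counts.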
